A study of Mus musculus with 18 samples.

Results

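Primary mammary tumours of mice labelled Wnt1_iFGFR2 were compared with tumours labelled Wnt1_iFGFR1, called iFGFR2 and iFGFR1 here. The compared arrays were chosen by the label of the tumour RNA alone. They are 8 of the 18 arrays of the series, 4 of iFGFR2 and 4 of iFGFR1, and the comparison ran over 16887 named genes. The other arrays carried tumours labelled Wnt1_iR2 (4 arrays) and Wnt1 (6 arrays), called iR2 and Wnt1.

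Both compared groups carry Wnt1 in their labels, as do the other groups. The sample titles carry FVB, the name of an inbred mouse strain, and MMTV, the mouse mammary tumour virus whose promoter is used to drive transgenes in mammary epithelium. The labels give no expansion of iFGFR1, iFGFR2 or iR2, no promoter for the receptors, no age and no drug treatment, and they say nothing of lines or pooled animals. They do not say that the arrays come from separate animals either, so every p-value covers the variation among these samples only, part or all of which may be technical.

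FGF receptors are receptor tyrosine kinases that pass signals from fibroblast growth factors through the ERK cascade, among other routes, and feedback inhibitors such as the Sprouty proteins are induced by that cascade. FGFR1 and FGFR2 are separate genes, and in the developing mammary gland FGFR2 is needed in the epithelium for the ducts to grow. Wnt1 is a secreted ligand that stabilises beta-catenin, and it gives rise to mammary tumours with both luminal and basal epithelium when it is driven in the mouse gland. By its title, the series is about how both pathways act together in tumours. The comparison here asks how tumours differ that carry 1 receptor or the other beside Wnt1.

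Each value is a log2 ratio of tumour RNA over RNA of a whole-mouse pool, so 1 unit is a factor of 2 and a negative value means less than in the pool. A level of one gene cannot be set against that of another on this scale. Differences are mean iFGFR2 minus mean iFGFR1, with a standard error (SE) and an adjusted p from limma. A gene was called where the adjusted p was under 0.05, and values per array are given in the order of replicates 1 to 4. Of the luminal mammary markers, Krt8, Krt18, Epcam and Elf5 were above the pool on all 8 arrays, as Krt18 at 2.96 to 3.70 in iFGFR2 and 3.26 to 4.01 in iFGFR1, and Elf5 at 3.20 to 4.64 in iFGFR2 and 3.66 to 4.22 in iFGFR1. Krt19 ranged between 0.51 and 1.91 in iFGFR2 and between -0.04 and 2.25 in iFGFR1, so it was not above the pool on every array. The defining genes of fat, Adipoq and Fabp4, of muscle, Ckm, and of liver, Alb, were far below the pool on all 8 arrays.

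The arrays of a group were not always closest to each other. Over all genes, pairs of iFGFR2 arrays correlated at 0.72 to 0.876, pairs of iFGFR1 arrays at 0.736 to 0.828, and pairs across the groups at 0.692 to 0.85. iFGFR1 replicate 2 correlated best with an iFGFR2 array (0.85, replicate 2). Of the iFGFR2 arrays, replicate 1 correlated best with an iR2 array (0.825), replicate 2 with a Wnt1 array (0.856) and replicate 3 with an iR2 array (0.883). iFGFR2 replicate 1 correlated at 0.72 to 0.782 with the other arrays of its group. iFGFR1 replicate 2 and iFGFR2 replicate 1 were kept, and counts without them are given with the totals.

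In all, 360 of 16887 genes (2.13%) were called, 204 higher (1.21%) and 156 lower (0.924%) in iFGFR2. The median difference of the called genes was 1.22 for those higher and -1.19 for those lower, against -0.008 over all genes. All 4 iFGFR2 values lay on 1 side of all 4 iFGFR1 values for 323 of the 360, while 6.17% of all genes were separated in this way. For 185 of these genes the iFGFR2 arrays lay above (3.36% of all genes did) and for 138 below (2.81% did). The called genes differed by at least 0.65 in size, 266 of them by 1 or more and 37 by 2 or more. At the edge of the threshold, Zkscan3 (0.79) and Gtf2f2 (-0.82) were just inside at an adjusted p of 0.0498, and Plk3 (-1.05) and Csf2ra (1.08) were just outside at 0.05 and 0.0506. The fit of the 8 compared arrays alone called 71 genes, 47 higher and 24 lower. With all groups in the fit, the count was 319 without iFGFR2 replicate 1 and 530 without iFGFR1 replicate 2. It fell to 223 without iFGFR2 replicate 3, to 206 without iFGFR2 replicate 4 and to 183 without iFGFR1 replicate 3, each a change by over 1.5 times.

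**Figure D1:**
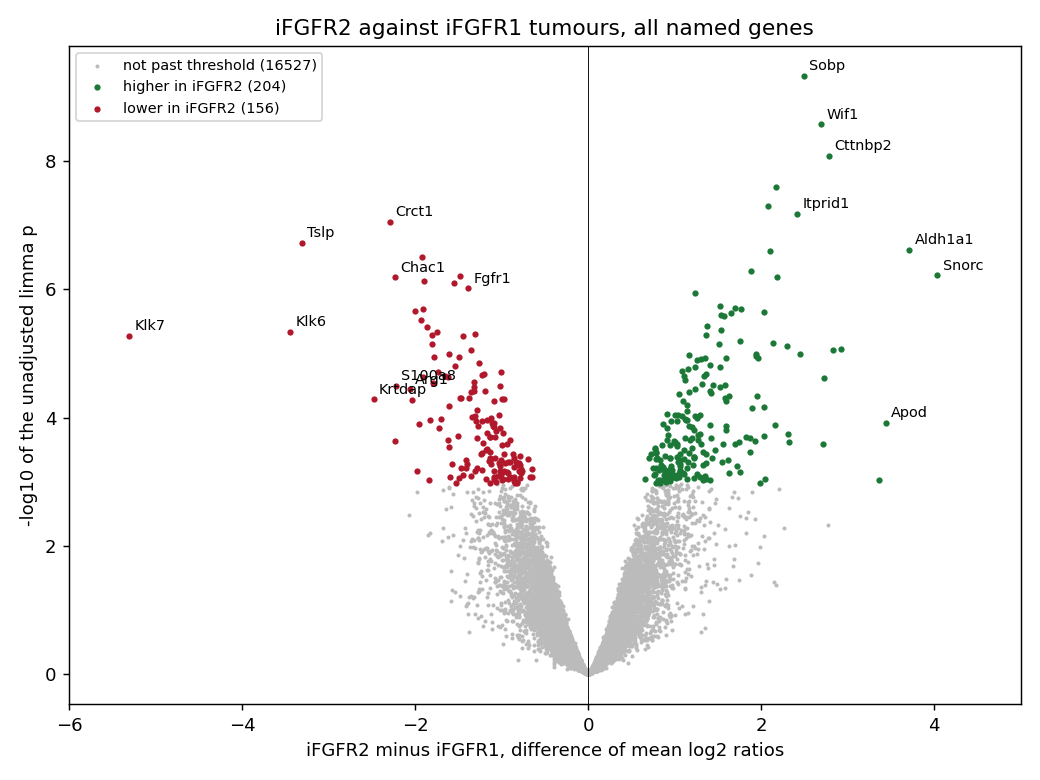
Each point is a gene, with the difference of mean log2 ratios (iFGFR2 minus iFGFR1) across and -log10 of the unadjusted limma p upwards. The 204 called genes higher in iFGFR2 are green and the 156 lower are red. Klk7 lies farthest to the left at -5.30, Snorc farthest to the right at 4.04, and Sobp has the smallest p.

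Most of the called genes had Wnt1 tumours at the iFGFR2 end. The mean of the 6 Wnt1 arrays was nearer to the iFGFR2 mean than to the iFGFR1 mean for 312 of the 360 called genes (86.7%), against 58.2% of all genes. This held for 181 of 204 genes higher in iFGFR2 (88.7%) and for 131 of 156 lower (84.0%). The iR2 mean was nearer to the iFGFR2 mean for 329 of the 360 (91.4%), against 60.6% of all genes. These shares describe where the means lie and carry no test.

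Of the genes in the group names, Fgfr1 differed, while Fgfr2 and Wnt1 did not pass the test. Fgfr1 was 0.06, 0.65, 0.20 and -0.09 in iFGFR2, against 2.14, 1.5, 1.32 and 1.42 in iFGFR1. Every iFGFR2 array was below every iFGFR1 array, by a mean of -1.39 (SE 0.20, adjusted p = 0.00085, 2.62-fold lower), though the adjusted p was 0.054 in a fit of the 8 compared arrays alone. Fgfr1 was 0.22 ± 0.14 in Wnt1 (SD, n = 6), in the range of the iFGFR2 arrays. Fgfr2 was -0.81, 0.40, -0.72 and -0.54 in iFGFR2, against -0.49, -0.52, -1.02 and -0.30 in iFGFR1, and the groups overlapped (difference 0.16, SE 0.27, adjusted p = 0.811). Which part of each receptor the array features read is not known here, so neither gene settles what the tumours carry. Wnt1 was above the pool on all 8 arrays and overlapped (0.12, SE 0.28, adjusted p = 0.87). Fkbp1a is the gene of the drug-binding protein FKBP12, whose domain is used to join receptors by a dimerising drug. No label names this gene, and it overlapped as well (-0.04, SE 0.26, adjusted p = 0.96).

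Other genes of FGF signalling are set beside the share of all genes called, 2.13%. At that share lists this short hold few calls or none, so the counts do not set FGF genes apart. Among 14 measured FGF receptors and ligands Fgfr1 was the single call, while Fgfr3 (-1.22, adjusted p = 0.299) and Fgf1 (1.12, adjusted p = 0.136) overlapped between the groups. Of 22 genes that FGF and ERK signals induce, such as the Sprouty and Spred inhibitors, the Dusp phosphatases and the Etv factors, limma called 0, and 2 were higher and 5 lower at an unadjusted p under 0.05. Those 7 of the 22 compare with 16.3% of all genes at that unadjusted p. A fit without variance shrinkage and a fit with array weights also called 0 of them, while 2 were called without iFGFR1 replicate 1, 1 without iFGFR2 replicate 1 and 2 without Wnt1 replicate 3. Their median difference was -0.13. Spry2 was 1.70, 0.94, 1.13 and 1.02 in iFGFR2, against 0.72, 0.51, 0.71 and 0.82 in iFGFR1, so that the groups did not overlap, yet its adjusted p was 0.209. Spry1 ran the other way without overlap (-0.76, adjusted p = 0.152), and the factor Ets1 was higher without overlap (0.80, adjusted p = 0.107). Etv1 (-0.99, adjusted p = 0.175), Dusp7 (-0.96, adjusted p = 0.0842), Ier3 (-0.93, adjusted p = 0.0641) and Dusp6 (-0.37, adjusted p = 0.604) overlapped.

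Among 8 ligands of the EGF receptor family, 1 was called, against 2.13% of all genes. Hbegf, which encodes the heparin-binding ligand of that receptor, was -0.84, -1.5, -0.53 and -0.41 in iFGFR2, against 0.59, 0.67, 1.47 and 1.44 in iFGFR1. It was lower on every iFGFR2 array (-1.86, SE 0.30, adjusted p = 0.00208, 3.64-fold lower). Tgfa (-0.15), Nrg1 (0.13), Ereg (0.55) and Egf (1.38) overlapped between the groups and were not called.

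The largest difference of any called gene was the fall of Klk7, a serine protease of squamous epithelium. This protease, which cuts the links between cells in the outer layer of skin, was -3.99, -3.38, -4.38 and -4.96 in iFGFR2, against 2.21, -0.10, 1.15 and 1.24 in iFGFR1. All 4 iFGFR1 arrays were near or above the pool and all iFGFR2 arrays far below it. The difference was -5.30 (SE 0.86, adjusted p = 0.00229), 39.5-fold lower in iFGFR2. Klk6, a related protease, was -0.06, -0.39, 0.01 and -0.58 in iFGFR2, against 2.94, 3.23, 3.11 and 3.46 in iFGFR1. The iFGFR1 arrays lay within a narrow range, and the difference was -3.44 (SE 0.55, adjusted p = 0.00224, 10.9-fold lower). The 6 Wnt1 tumours had medians of -4.83 for Klk7 and -0.21 for Klk6, but their highest values, -0.08 and 3.24, reached the iFGFR1 range.

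The kallikrein genes of single-number names were looked at together after these values were seen. Measured genes of the Klk1b group, such as Klk1b1 and Klk1b5, were not looked at. Of 10 measured genes of single-number names, Klk5 (-1.89), Klk6, Klk7 and Klk10 (-1.75) fell, the first and last with adjusted p of 0.000735 and 0.00224. Over all genes 0.924% fell, but this group was picked after the falls of Klk7 and Klk6 were seen. Klk12 (-1.42, adjusted p = 0.387), Klk1 (-0.17), Klk4 (-0.01), Klk11 (0.04), Klk9 (0.35) and Klk8 (0.50, adjusted p = 0.165) were not called. In the RefSeq order of genes on chromosome 7, Klk7, Klk6 and Klk5 are neighbours, and Klk8 and Klk9 lie between them and Klk10. Genes that fell thus lay beside genes with positive differences in the cluster.

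Of 28 measured squamous keratinocyte genes 5 fell and 0 rose, against 0.924% of all genes that fell. Their median difference was -0.41. Their mean level was -1.98, -1.65, -1.67 and -1.72 in iFGFR2, against -0.74, -1.25, -0.92 and -0.88 in iFGFR1, with no overlap. The 5 were Klk5, Klk6, Klk7, Klk10 and Krtdap, so 4 of them are kallikreins. Krtdap, a secreted protein of differentiating keratinocytes, was -4.11, -3.45, -3.74 and -3.85 in iFGFR2, against 0.40, -2.75, -1.25 and -1.63 in iFGFR1 (-2.48, SE 0.48, adjusted p = 0.00832). Calm4 differed by -1.97 without being called (adjusted p = 0.0587), and the genes of the cornified envelope, Lor, Ivl, Flg and the Sprr genes, did not pass the test. In whole tumours, fewer cells of a type and less RNA per cell cannot be told apart.

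Further falls were in epithelial genes outside that list. Crct1, which lies in the gene cluster of epidermal differentiation, was -4.98, -4.97, -5.18 and -4.78 in iFGFR2, against -2.54, -2.79, -2.65 and -2.75 in iFGFR1. Replicates lay close together in both groups, and the difference was -2.29 (SE 0.28, adjusted p = 0.000216). Keratins Krt17 (-2.04, adjusted p = 0.0085), of basal and wounded epithelium, and Krt76 (-2.0, adjusted p = 0.00146), of oral epithelium, fell too, each without overlap. So did the tight junction genes Cldn1 (-1.80, adjusted p = 0.00602) and Cldn7 (-1.0, adjusted p = 0.0231). They were the 2 called among 20 of that kind, against 0.924% of all genes that fell. Cldn3 (-0.89, adjusted p = 0.112) and Cldn4 (-0.66, adjusted p = 0.333) were not called.

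Tslp, an epithelial cytokine that acts on dendritic cells and T helper cells, was -2.14, 0.17, -0.80 and -0.70 in iFGFR2, against 2.10, 1.24, 3.66 and 2.77 in iFGFR1. The groups were apart by more than 1 unit at their nearest values. The difference was -3.31 (SE 0.43, adjusted p = 0.0004, 9.93-fold lower), and the 6 Wnt1 arrays ranged between -0.53 and 0.38. Among 23 marker genes of lymphocytes limma called 0, and 4 were higher and 3 lower at an unadjusted p under 0.05. These counts compare with 16.3% of all genes at that unadjusted p. None of the 23 was called without variance shrinkage or with array weights, and 1 was called lower without iFGFR1 replicate 4. The part of lymphocytes in the Tslp result was not tested.

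**Figure D2:**
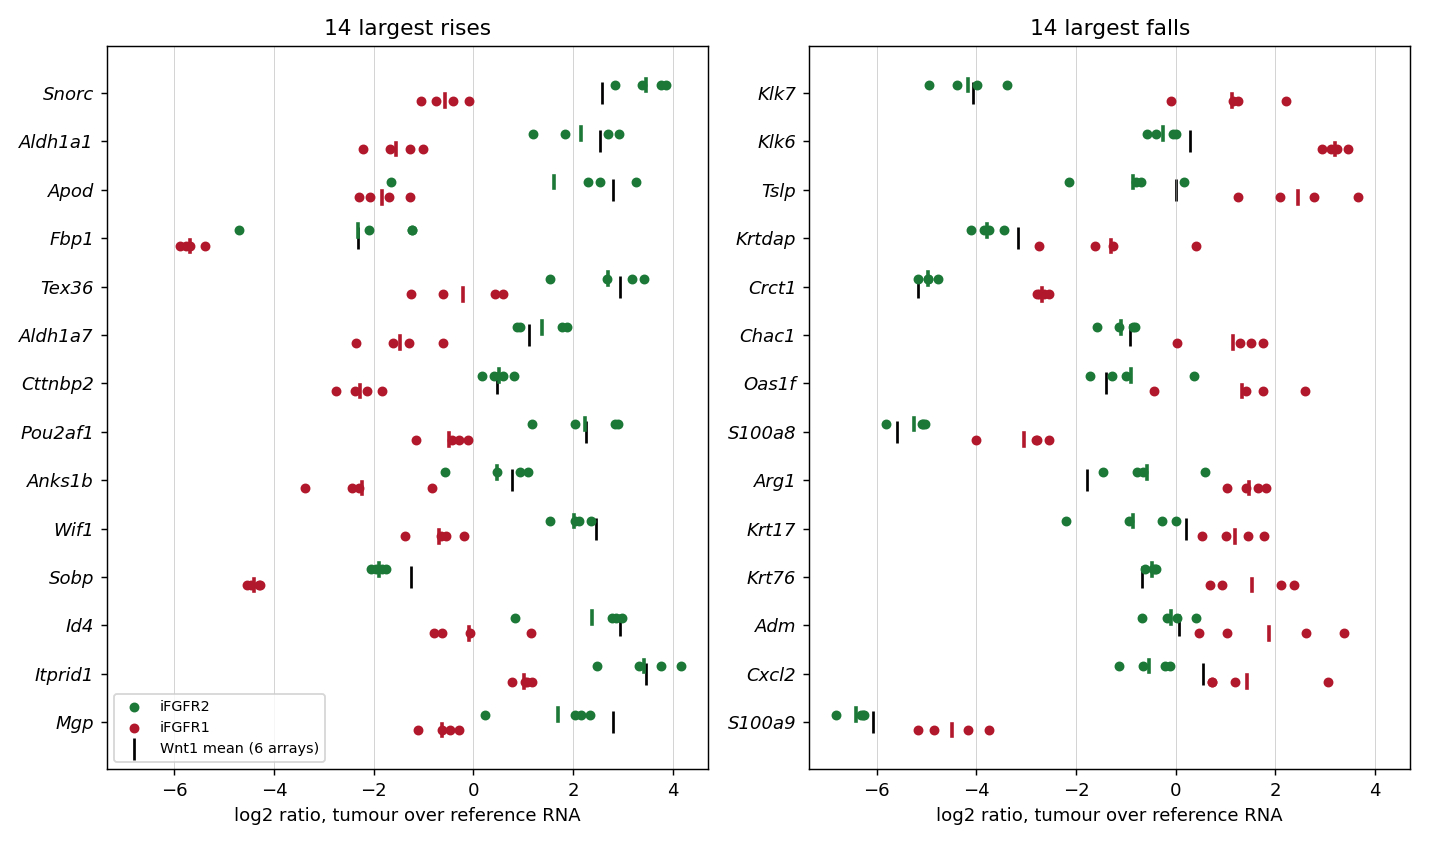
Each row is a gene and each point an array, with the log2 ratio of tumour over reference RNA across. iFGFR2 is green and above, iFGFR1 red and below, coloured bars are group means and the black bar is the mean of the 6 Wnt1 arrays. The green and red points are apart for all genes shown except Apod, Id4 and Oas1f, where 1 array crosses.

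The largest rise was in Snorc, a proteoglycan of cartilage cells in the mouse. It was 2.85, 3.87, 3.39 and 3.76 in iFGFR2, against -0.74, -0.09, -1.06 and -0.40 in iFGFR1. The groups did not overlap, and the difference was 4.04 (SE 0.56, adjusted p = 0.000692, 16.4-fold higher). Wnt1 tumours had a median of 2.92 and 1 array as low as -0.13.

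The retinaldehyde dehydrogenase Aldh1a1, which makes retinoic acid and is widely used as a marker of progenitor cells, rose as well. Its levels were 1.20, 1.83, 2.93 and 2.70 in iFGFR2, against -1.01, -1.28, -2.21 and -1.68 in iFGFR1. Every iFGFR2 array was above the pool and every iFGFR1 array below it (3.71, SE 0.49, adjusted p = 0.000428, 13.1-fold higher). Aldh1a7, its close paralogue, rose by 2.84 (adjusted p = 0.00314) on all 4 arrays, and since the genes are near-identical an array feature of one may bind RNA of the other. These were the 2 called among 16 genes of retinoid handling, against 1.21% of all genes that rose. The list median was 0.39. Aldh1a3 (1.28, adjusted p = 0.209), Rarb (1.31, adjusted p = 0.311) and Aldh1a2 (-0.27) were not called.

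The smallest p-values belonged to 3 genes that rose with little spread. Sobp, which encodes a nuclear protein, was -2.06, -1.96, -1.83 and -1.76 in iFGFR2, against -4.30, -4.46, -4.54 and -4.28 in iFGFR1 (2.50, SE 0.22, adjusted p = 8.02e-06). Cttnbp2, a cortactin-binding protein, was 0.42, 0.82, 0.18 and 0.60 in iFGFR2, against -2.76, -1.83, -2.38 and -2.14 in iFGFR1 (2.79, SE 0.30, adjusted p = 4.71e-05). Wif1 is given with the Wnt antagonists. In all 3 the Wnt1 and iR2 medians lay at the iFGFR2 end, at -1.30 and -2.10 for Sobp and at 0.59 and 0.60 for Cttnbp2.

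In several of the large rises iFGFR2 replicate 1 stood lower than the rest of its group. Apod, a secreted lipocalin, was -1.66, 2.54, 2.29 and 3.27 in iFGFR2, against -1.28, -1.69, -2.29 and -2.08 in iFGFR1. Replicate 1 of iFGFR2 lay within the iFGFR1 range and the other 3 far above it (3.44, SE 0.72, adjusted p = 0.0146). The regulator Id4, an inhibitor of helix-loop-helix factors found in mammary basal cells, had the same array low, with 0.83, 2.79, 2.99 and 2.87 in iFGFR2, against 1.15, -0.78, -0.06 and -0.63 in iFGFR1 (2.45, adjusted p = 0.00343). Fbp1, the fructose bisphosphatase of gluconeogenesis, was -4.70 on that array and -2.10, -1.24 and -1.24 on the other iFGFR2 arrays, against -5.89 to -5.38 in iFGFR1 (3.36, adjusted p = 0.0461). Pou2af1, a coactivator of Oct factors in B cells, rose by 2.73 (adjusted p = 0.0052), Anks1b, a synaptic ankyrin-repeat protein, by 2.72 (0.023), and the less known Tex36 and Itprid1 by 2.92 (0.00314) and 2.42 (0.000187), all without overlap. None of the other B cell genes listed with the lymphocytes, such as Ms4a1 (0.90), Cd79b (-0.53) and Blnk (-0.61), was called beside Pou2af1.

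Of 25 Wnt targets and antagonists 4 rose and 0 fell, against 1.21% of all genes that rose. All 4 that rose encode secreted proteins listed here with the Wnt antagonists. Wif1, which binds Wnt ligands outside the cell, was 2.12, 1.54, 2.35 and 2.03 in iFGFR2, against -0.18, -0.54, -0.64 and -1.37 in iFGFR1. The iFGFR2 arrays were above the pool and the iFGFR1 arrays below it (2.69, SE 0.27, adjusted p = 2.27e-05, 6.45-fold higher). Sostdc1, an antagonist of Wnt and BMP signals, was 0.49, 1.48, 1.72 and 1.67 in iFGFR2, against -0.29, -1.06, -1.10 and -1.43 in iFGFR1 (2.31, SE 0.51, adjusted p = 0.0191). Dkk3, of the Dickkopf family, rose by 1.37 without overlap (SE 0.22, adjusted p = 0.00205). Sfrp2, of the secreted Frizzled-related proteins, rose by 2.04 (SE 0.41, adjusted p = 0.0102), with iFGFR1 replicate 4 at -1.45 just above the lowest iFGFR2 value of -1.51.

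Axin2, Nkd1 and Lgr5, which beta-catenin induces, were not called. Since 2.13% of all genes were called, this does not set them apart from other genes. Axin2 was -0.21, 0.22, 0.14 and -0.04 in iFGFR2, against 0.65, 0.88, 0.50 and 0.19 in iFGFR1, with overlap (-0.53, adjusted p = 0.259). Nkd1 was lower without overlap (-1.11, adjusted p = 0.104), and Lgr5 was -2.35, 0.14, 0.59 and 0.48 in iFGFR2, against -1.54 to -1.91 on iFGFR1 arrays (1.45, adjusted p = 0.122). Other antagonists, Sfrp1 (0.47), Dkk1 (-0.05), Sfrp4 (-0.29) and Frzb (-0.21), were not called either. Fzd7 was higher (0.735, adjusted p = 0.0972) and Prom1 lower (-0.975, adjusted p = 0.0704), both without overlap and uncalled. The list had a median of 0.20.

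Of 21 Notch pathway genes 1 was called, against 2.13% of all genes. The receptor Notch1 was 1.25, 0.16, 0.68 and 0.41 in iFGFR2, against -0.36, -0.52, -0.25 and -0.94 in iFGFR1 (1.14, SE 0.24, adjusted p = 0.0139). Its call ended in the fit of the 8 compared arrays alone (adjusted p = 0.145). The Notch target Hey1 differed by 1.89 and missed the threshold (adjusted p = 0.059), and Notch4 by -1.01 (adjusted p = 0.0635).

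A set of stress and amino acid genes held the most calls of any list. Cells short of amino acids or under endoplasmic reticulum stress translate the factor ATF4, which induces amino acid synthesis, uptake and tRNA charging genes through a short composite site. Of 35 measured genes of this response 10 fell and 0 rose in iFGFR2, which is 28.6%, against 0.924% of all genes. The median difference was -0.56. The mean level of the list was -0.30, -0.13, -0.10 and -0.13 in iFGFR2, against 0.73, 0.20, 0.57 and 0.63 in iFGFR1, and the groups did not overlap. Between 6 and 11 members were called with any 1 of the 18 arrays left out, 7 with array weights and 3 in the fit of the 8 compared arrays alone.

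Chac1, an enzyme that breaks down glutathione, was -0.85, -1.59, -0.81 and -1.13 in iFGFR2, against 1.51, 0.02, 1.28 and 1.75 in iFGFR1. The groups were apart, with iFGFR1 replicate 2 the lowest of its group (-2.23, SE 0.31, adjusted p = 0.000692, 4.71-fold lower). The serine pathway was represented by Phgdh, its first enzyme, at -0.49, -0.99, -0.58 and -0.69 in iFGFR2, against 1.21, 0.43, 0.72 and 0.80 in iFGFR1 (-1.48, SE 0.21, adjusted p = 0.000692). Psat1, the next enzyme, fell by 1.83 on the log2 scale (adjusted p = 0.0139), while Psph, the last, was not called (-0.75, adjusted p = 0.153). Mthfd2, a mitochondrial enzyme of folate metabolism that takes up carbon from serine, was -1.54, 0.04, -0.84 and -0.49 in iFGFR2, against 0.88, 0.64, 0.63 and 0.90 in iFGFR1 (-1.47, adjusted p = 0.00819).

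Asparagine synthetase, Asns, was -1.0, -0.69, -0.78 and -0.71 in iFGFR2, against 1.28, -0.31, 0.82 and 0.22 in iFGFR1 (-1.30, adjusted p = 0.014). The amino acid transporters Slc7a3 (-1.70, adjusted p = 0.0138) and Slc7a5 (-1.21, adjusted p = 0.0225), the factors Atf5 (-1.02, adjusted p = 0.00632) and Cebpb (-1.02, adjusted p = 0.0368) and the proline enzyme Aldh18a1 (-1.01, adjusted p = 0.0322) made up the rest of the 10. All 10 were below on every iFGFR2 array. Atf4 itself differed by -0.93 with overlap (adjusted p = 0.0873), and Ddit3 (-0.56), Slc7a11 (0.06), Fgf21 (0.04) and the tRNA synthetases Gars, Sars, Wars, Cars and Mars1 (-0.64 to -0.18) were not called. Genes of the unfolded protein response that other factors than ATF4 drive, such as Hspa5 and Dnajb9, were not called either. Limma called 0 of 18, with 1 lower and 0 higher at an unadjusted p under 0.05, against 16.3% of all genes. Without variance shrinkage or with array weights 0 were called.

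**Figure D3:**
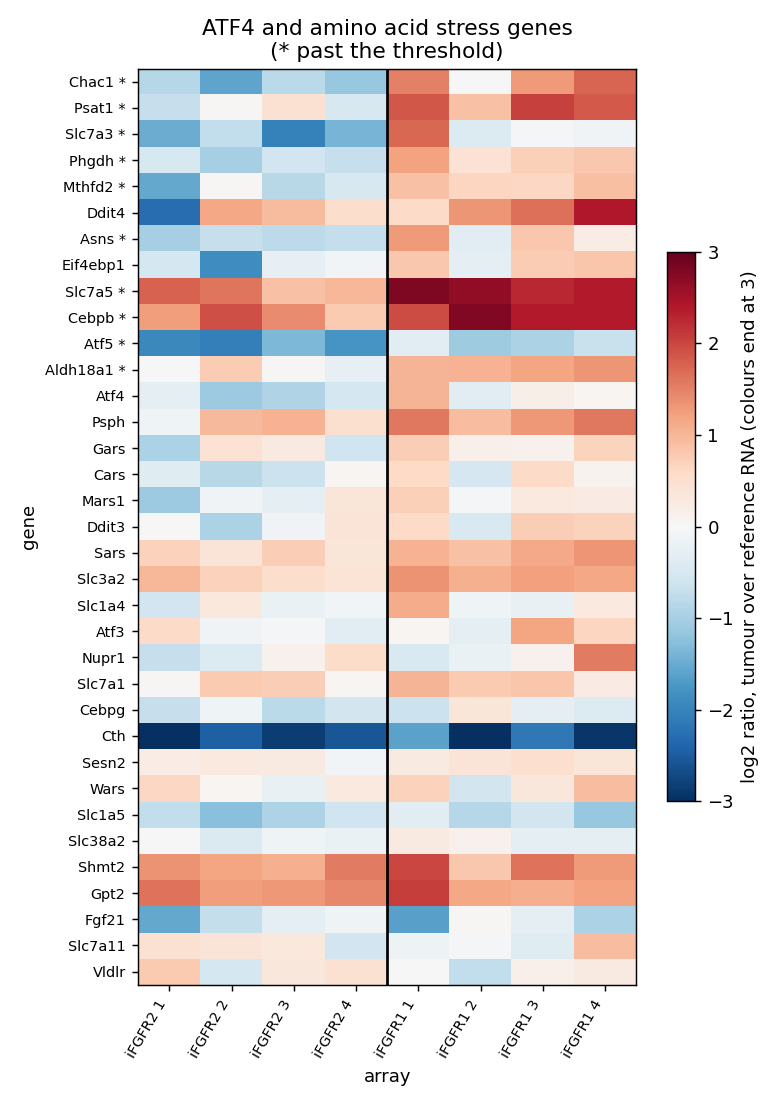
Rows are the 35 measured genes of the ATF4 and amino acid list, ordered by difference, and columns are the 4 iFGFR2 arrays and the 4 iFGFR1 arrays. Colour is the log2 ratio of tumour over reference RNA, ending at 3 on either side, and a star marks the 10 genes past the threshold, which lie at the top with lower values in iFGFR2.

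The promoters of the called members were searched for a simplified composite site that ATF4 binds with C/EBP factors, the letters TGATGNAAN, on both strands. The windows of 300 bases reach from before the start of transcription to shortly after it and are RefSeq sequence of GRCm38.p6. A match was found for 2 of the 8 called members with a promoter and for 9 of 28 list members with one, while 3.95% of 32851 windows (4.5% of 27025 genes) hold one. The 2 are Asns, chr6:7693160-7693459 on the minus strand, with its match 23 bases upstream of the start on the gene's own strand, and Chac1, chr2:119350992-119351291 on the plus strand, with its match 194 bases upstream on the opposite strand. They are shown because they carry the letters next to a called fall, with the match in capitals.
Asns: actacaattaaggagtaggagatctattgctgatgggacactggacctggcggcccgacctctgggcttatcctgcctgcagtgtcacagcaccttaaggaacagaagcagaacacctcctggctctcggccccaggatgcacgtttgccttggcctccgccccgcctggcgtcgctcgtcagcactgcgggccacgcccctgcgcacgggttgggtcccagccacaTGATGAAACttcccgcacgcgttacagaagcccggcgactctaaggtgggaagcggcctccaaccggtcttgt
Chac1: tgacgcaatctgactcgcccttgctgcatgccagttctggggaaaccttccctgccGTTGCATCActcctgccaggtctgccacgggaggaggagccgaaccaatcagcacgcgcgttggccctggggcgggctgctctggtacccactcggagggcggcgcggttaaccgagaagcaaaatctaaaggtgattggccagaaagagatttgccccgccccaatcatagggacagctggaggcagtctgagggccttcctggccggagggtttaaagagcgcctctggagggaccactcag
A match describes the letters of the window, not a bound site, and a window without one says nothing of the factor.

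Arginine metabolism held 2 falls among 15 genes, against 0.924% of all genes that fell, and the list median was -0.32. Arg1, arginase, which turns arginine into ornithine, was 0.58, -1.46, -0.66 and -0.78 in iFGFR2, against 1.41, 1.03, 1.81 and 1.65 in iFGFR1 (-2.06, SE 0.39, adjusted p = 0.00685). Odc1, which turns ornithine into the polyamine putrescine, was -1.02, -0.57, -0.69 and -1.12 in iFGFR2, against 1.01, 0.14, 0.81 and 0.06 in iFGFR1 (-1.35, SE 0.26, adjusted p = 0.00719). Arg1 is also a marker of macrophages, and it was the single call among 24 macrophage genes, whose median was -0.16. The part of macrophages in the Arg1 result was not tested.

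Among 36 genes of hypoxia and glycolysis, many of which low oxygen induces, 3 fell and 0 rose, against 0.924% of all genes that fell. In the list 34 had negative differences, while the median difference over all genes was -0.008. The list median of -0.69 was the lowest of the 31 lists. Car9, the carbonic anhydrase widely used as a marker of hypoxia, was 1.27, 0.20, 0.95 and 1.02 in iFGFR2, against 2.38, 1.56, 2.15 and 2.23 in iFGFR1 (-1.22, SE 0.26, adjusted p = 0.014). Adm, the vasodilator adrenomedullin, was 0.40, -0.67, -0.17 and 0.03 in iFGFR2, against 1.03, 0.46, 2.62 and 3.38 in iFGFR1 (-1.98, SE 0.49, adjusted p = 0.0398). iFGFR1 replicates 3 and 4 were far above the rest, and the list mean showed these same arrays high, with -0.35, -0.34, 0.01 and 0.12 in iFGFR2, against 0.25, 0.25, 0.94 and 1.06 in iFGFR1. Bnip3, a protein of mitochondrial clearance, fell by 1.41 on the log2 scale (SE 0.35, adjusted p = 0.0379). The glucose transporter Slc2a1 (-1.61, adjusted p = 0.0544), Vegfa (-1.19, adjusted p = 0.184) and Ldha (-0.73, adjusted p = 0.176) were not called. Without iFGFR1 replicate 4 the list had 1 call and without iFGFR1 replicate 2 it had 6. The fit of the 8 compared arrays and the fit with array weights called 0 of the list, Car9 included.

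The core of the site that hypoxia-inducible factors bind, ACGTG on either strand, stands in 19.6% of windows (21.8% of genes) and in 23 of 32 list members with a promoter. Of the 3 called members, Car9 and Bnip3 held it. In Car9, chr4:43506776-43507075 on the plus strand, it starts 18 bases upstream on the opposite strand. In Bnip3, chr7:138909457-138909756 on the minus strand, it stands 107 bases upstream on the gene's strand and 108 on the other, which overlap as a palindrome. Capitals mark the match.
Car9: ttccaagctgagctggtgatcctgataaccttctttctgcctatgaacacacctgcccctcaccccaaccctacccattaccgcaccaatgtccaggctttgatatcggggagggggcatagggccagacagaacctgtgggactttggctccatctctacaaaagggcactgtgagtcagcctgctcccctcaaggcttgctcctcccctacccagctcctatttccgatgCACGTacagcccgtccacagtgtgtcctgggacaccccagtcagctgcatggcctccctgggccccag
Bnip3: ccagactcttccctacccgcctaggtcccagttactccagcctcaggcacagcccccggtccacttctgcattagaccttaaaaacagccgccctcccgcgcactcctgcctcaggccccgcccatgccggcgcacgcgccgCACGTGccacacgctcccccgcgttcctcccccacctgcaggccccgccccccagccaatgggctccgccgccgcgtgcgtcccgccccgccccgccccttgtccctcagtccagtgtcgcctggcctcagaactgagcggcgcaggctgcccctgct

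Interferon-induced genes were spread widely over the iFGFR1 arrays. Of 33 measured genes 3 fell and 0 rose, against 0.924% of all genes that fell. In the list 27 had negative differences and the median was -0.59, against a median of -0.008 over all genes. The list mean was 0.40, -0.20, -0.17 and -0.29 in iFGFR2, against 0.53, -0.39, 1.45 and 0.80 in iFGFR1. iFGFR1 replicate 2 lay below all iFGFR2 arrays and replicate 3 far above them. Irf7, a factor that amplifies the response, was 0.08, 0.19, -0.13 and -0.15 in iFGFR2, against 0.87, 0.42, 1.58 and 1.45 in iFGFR1 (-1.09, SE 0.28, adjusted p = 0.0456). Bst2, which tethers budding virus particles, fell by 1.5 on the log2 scale (adjusted p = 0.0451) and Oasl1 by 1.40 (adjusted p = 0.0349), both with iFGFR1 replicate 2 among the iFGFR2 values. Oas1f, an oligoadenylate synthetase outside the list, fell by 2.23 on the log2 scale with overlap of the same array (adjusted p = 0.0215), and its family holds near-identical copies that an array feature may not tell apart. The number of list members called was 0 without iFGFR1 replicate 3 or 4 or iFGFR2 replicate 3 or 4, and 12 without iFGFR1 replicate 2.

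The interferon-stimulated response element was searched as GAAA, any 2 bases and GAAA again, on both strands, and stands in 3.44% of windows (3.99% of genes), in 14 of 26 list members with a promoter and in 1 of the 3 called, Bst2. In that window, chr8:71537423-71537722 on the minus strand, there are 2 overlapping matches, 124 and 130 bases upstream of the start, both in capitals.
Bst2: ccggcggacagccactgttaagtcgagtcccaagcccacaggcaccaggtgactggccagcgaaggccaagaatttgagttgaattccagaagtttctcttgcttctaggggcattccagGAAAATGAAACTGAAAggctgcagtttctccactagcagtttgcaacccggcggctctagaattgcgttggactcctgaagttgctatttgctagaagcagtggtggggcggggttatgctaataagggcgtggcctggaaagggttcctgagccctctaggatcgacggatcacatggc

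Among 20 measured genes of neutrophils and the cytokines that draw them, 5 fell and 0 rose, against 0.924% of all genes that fell. The list median was -0.55. The list mean was -1.31, -1.32, -1.19 and -1.27 in iFGFR2, against -0.76, -0.60, -0.44 and -0.60 in iFGFR1, without overlap. S100a8 and S100a9, which pair as calprotectin, fell: S100a8 was -5.82, -5.07, -5.10 and -5.04 in iFGFR2, against -2.80, -4.01, -2.79 and -2.54 in iFGFR1 (-2.23, SE 0.42, adjusted p = 0.00632), and S100a9 differed by -1.93 (SE 0.30, adjusted p = 0.00172). Both stayed below the pool in every tumour. Keratinocytes also make both proteins, so they are not defining for neutrophils in these tumours.

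Pglyrp1, a peptidoglycan-binding protein of neutrophil granules, was 0.20, -0.22, 0.11 and 0.03 in iFGFR2, against 1.32, 2.41, 2.05 and 1.55 in iFGFR1 (-1.80, SE 0.29, adjusted p = 0.00229). The chemokine Cxcl2 was -0.21, -0.12, -0.65 and -1.13 in iFGFR2, against 0.72, 3.06, 0.73 and 1.19 in iFGFR1 (-1.95, SE 0.41, adjusted p = 0.0147), and its receptor Cxcr2, the fifth call, differed by -0.85 (adjusted p = 0.0493). The receptor Csf3r (-0.08) and the granule genes Mpo (-0.01), Elane (0.00), Camp (-0.65), Ngp (-0.35), Mmp9 (-0.15) and Lcn2 (-0.05) were not called. Mmp8 (-1.03, adjusted p = 0.0683) and Cxcl5 (-0.83, adjusted p = 0.136) were lower without overlap but uncalled, and Cxcl1 (-1.06, adjusted p = 0.15) overlapped. Ltf (0.38), Il1b (0.345) and Trem1 (0.10) had positive differences. The part of neutrophils in these results was not tested.

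Of 50 genes of mitosis and DNA replication 3 fell and 0 rose, against 0.924% of all genes that fell. In the list 43 had negative differences and the median was -0.34, against a median of -0.008 over all genes. The list mean was 0.07, 0.30, 0.35 and 0.36 in iFGFR2, against 0.70, 0.40, 0.86 and 0.47 in iFGFR1. The nearest values of the groups were 0.36 and 0.40. The called genes were the mitotic kinase Pbk (-1.18, SE 0.27, adjusted p = 0.0267), Ube2c of the anaphase-promoting machinery (-0.96, SE 0.23, adjusted p = 0.0347) and cyclin E, Ccne1 (-0.86, SE 0.22, adjusted p = 0.0468). None of the 3 remained called without iFGFR1 replicate 3, where the list had 0 calls, as it had without iFGFR2 replicate 1, 3 or 4. The fit of the 8 compared arrays also called 0 of the list, and the fit with array weights and that without variance shrinkage called 1 each.

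Matrix and stromal genes held rises. Of 28 fibroblast and matrix genes 4 rose and 0 fell, against 1.21% of all genes that rose, though the list median was -0.05. Pdgfra, a growth factor receptor of fibroblasts, was -2.43, -1.24, -1.17 and -0.76 in iFGFR2, against -3.55, -3.83, -3.62 and -3.32 in iFGFR1 (2.18, SE 0.31, adjusted p = 0.000692, 4.53-fold higher). Mgp, a matrix protein that inhibits calcification, was 0.24, 2.04, 2.34 and 2.15 in iFGFR2, against -0.29, -0.63, -1.12 and -0.47 in iFGFR1 (2.32, SE 0.52, adjusted p = 0.022). The fibulins Fbln1 and Fbln2 rose by 1.14 (adjusted p = 0.0117) and 1.12 (adjusted p = 0.00555). Other fibroblast genes ran the other way without passing, as Dpt (-1.56, adjusted p = 0.0621) and Fn1 (-1.08, adjusted p = 0.255).

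Collagen chains had the highest list median, 0.57. Of 24 measured 3 rose and 0 fell, against 1.21% of all genes that rose. The 3 were Col14a1 (1.44, adjusted p = 0.00621, the mean of 2 features), Col4a1 of basement membranes (1.27, adjusted p = 0.0194) and Col7a1 of the fibrils that anchor epithelium (1.21, adjusted p = 0.0358). The list mean was -0.91, -0.79, -0.94 and -0.83 in iFGFR2, against -1.55, -1.53, -1.41 and -0.90 in iFGFR1. Replicates 1 to 3 of iFGFR1 were low and replicate 4 lay close to the iFGFR2 arrays. The part of stromal cells in the matrix results was not tested. Of 18 endothelial genes limma called 0, with 2 higher and 0 lower at an unadjusted p under 0.05, against 16.3% of all genes. Without variance shrinkage or with array weights 0 were called. The 2 higher genes were Eng (0.81, adjusted p = 0.0949), without overlap, and Icam2 (0.69, adjusted p = 0.17), with overlap.

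Mammary lineage lists held calls in both directions, while 2.13% of all genes were called. Among 23 basal and myoepithelial genes Id4 and the smooth muscle gene Tagln (0.78, adjusted p = 0.025) rose and Krt17 fell, with a median of 0.43. The mean of that list was -0.05, -0.10, 0.03 and -0.06 in iFGFR2, against -0.43, -0.77, -0.28 and -0.39 in iFGFR1, without overlap. Krt14 overlapped at -0.19 to 1.39 in iFGFR2 and -0.43 to 0.40 in iFGFR1, as did Krt5 at -1.34 to -0.14 in iFGFR2 and -1.67 to -0.71 in iFGFR1. Tspan8, a tetraspanin of mammary progenitors, was 1.10, 0.48, 0.83 and -0.03 in iFGFR2, against -0.94, -1.19, -2.0 and -2.03 in iFGFR1 (2.14, SE 0.36, adjusted p = 0.00278), the single call of 18 luminal progenitor and alveolar genes. Stc2, a secreted glycoprotein that oestrogen induces in breast cells, was the single call of 16 hormone-sensing genes (-1.44, SE 0.36, adjusted p = 0.0428). Of 15 milk protein genes limma called 0, with 1 higher and 2 lower at an unadjusted p under 0.05, against 16.3% of all genes. In other fits 1 was called higher without variance shrinkage or without iFGFR1 replicate 2, 1 lower without Wnt1 replicate 3 and 0 with array weights.

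**Figure D4:**
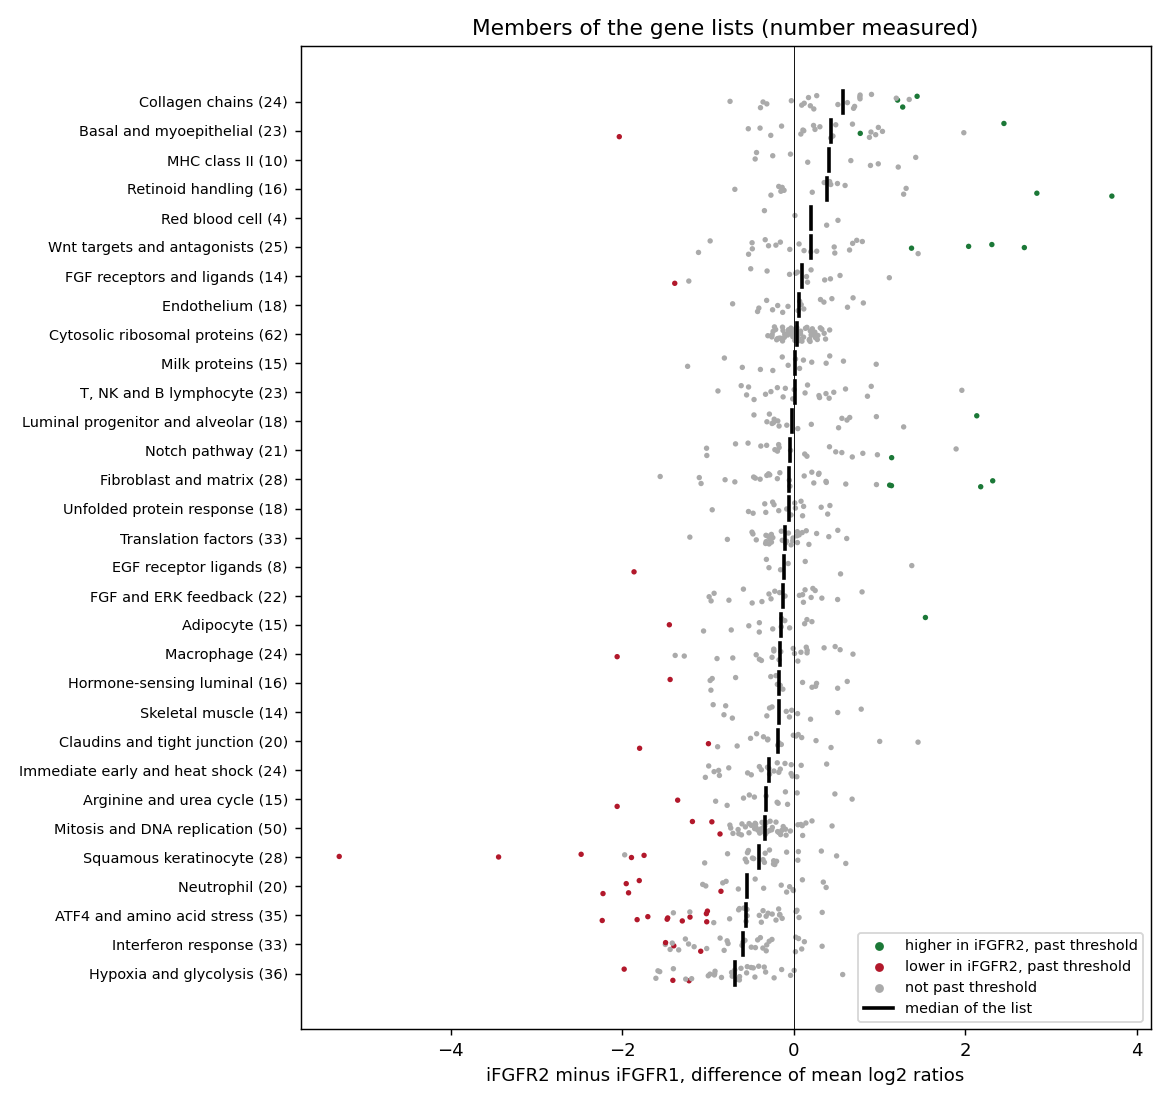
Each row is a gene list with the number of measured members, each point a member placed by its difference of mean log2 ratios (iFGFR2 minus iFGFR1), and the black bar the list's median. Members called higher are green and lower red. Medians run from -0.69 for hypoxia and glycolysis to 0.57 for collagen chains, and 10 members of the ATF4 list are red.

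In most of the remaining lists no member was called. Limma called 0 of 62 ribosomal protein genes (0 at an unadjusted p under 0.05, median 0.04), 0 of 33 translation factors (0 higher and 3 lower), 0 of 24 immediate early and heat shock genes (0 higher and 5 lower, median -0.29), 0 of 10 MHC class II genes (5 higher and 0 lower, median 0.41), 0 of 14 skeletal muscle genes (1 higher and 1 lower) and 0 of 4 red blood cell genes (0 at an unadjusted p under 0.05). Those counts compare with 16.3% of all genes at that unadjusted p. Of the MHC class II genes, H2-DMb1 (1.42, adjusted p = 0.0559) and Cd74 (1.22, adjusted p = 0.0651) were higher on all 4 iFGFR2 arrays than on any iFGFR1 array. The fits without variance shrinkage and with array weights called 0 in each of these lists as well. With 1 array left out, up to 2 immediate early and heat shock genes (without iFGFR1 replicate 1), 1 translation factor and 1 skeletal muscle gene were called lower and 1 MHC class II gene was called higher. Quantile normalization, the fit of the 12 receptor arrays and a filter on variance also called 1 MHC class II gene higher. Of 15 adipocyte genes the insulin-dependent glucose transporter Slc2a4 rose (1.54, adjusted p = 0.0015) and Cidea, a lipid droplet protein, fell (-1.45, adjusted p = 0.00229), while both were below the pool on all arrays. These 2 calls compare with 2.13% of all genes called.

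The weight of single arrays on the totals is shown by leaving out each in turn. Of the 64 named genes that were called, 42 remained called without any 1 of the 18 arrays, and all 64 kept their direction. The calls of Adm, Anks1b, Apod, Bnip3, Bst2, Ccne1, Cldn7, Col4a1, Col7a1, Cxcl2, Fbp1, Gtf2f2, Irf7, Mgp, Oas1f, Oasl1, Pbk, Sostdc1, Stc2, Tagln, Ube2c and Zkscan3 ended at least once. iFGFR1 replicate 3 ended 21 of these when left out, iFGFR2 replicate 4 ended 19 and iFGFR2 replicate 3 ended 16. With 4 arrays a group, a two-sided exact permutation test cannot go below 0.0286, and 58 of the 64 reached that value. It is reached where the groups do not overlap. Since the genes were named for calls on these same values, this adds no support to the calls.

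**Figure D5:**
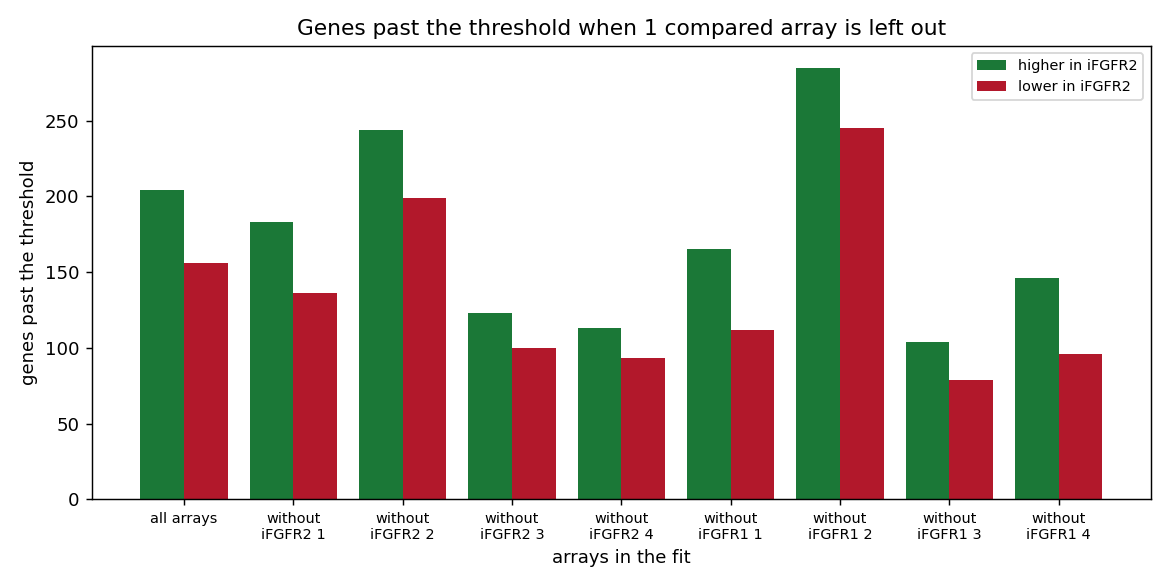
Bars give the number of genes past the threshold, higher (green) and lower (red) in iFGFR2, with all 18 arrays and without each compared array, iFGFR2 arrays first. The sum is 360 with all arrays, 183 without iFGFR1 replicate 3 and 530 without iFGFR1 replicate 2.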

How the data were processed

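RNA of 18 mammary tumours was measured on 2-channel arrays, tumour RNA in Cy5 and whole-mouse reference RNA in Cy3, per the labels. The authors deposited log2 ratios for 22575 features. Details of scanner, background correction, normalization and dim spots were not given in the sources used here. For this work the log base was read as 2, and the direction, tumour over reference, was taken from the dyes. No cell was empty and array medians lay between -0.023 and 0.009. Features with 1 symbol in the platform annotation (18658, against 30 with several and 3887 with none) were averaged to 16887 genes, of which 1247 had several features. All 18 arrays entered 1 limma 3.58.1 fit (lmFit and eBayes, 4 groups, R 4.3.3), with Benjamini-Hochberg adjustment over all genes and a threshold of 0.05. The method was tested on simulated data with independent normal noise and the same spread of a gene in all groups. That test does not cover groups of unequal spread. Genes of the group names and Fkbp1a are named. So are the 14 largest rises and the 14 largest falls among called genes with a proper symbol (13 of the 360 called carry only clone names). The rest are up to 4 called members of each of 31 lists by smallest p, and the 2 genes on either side of the threshold. List members named beyond that rule, with their values, were chosen after their values were seen. The comparison and the lists were chosen with earlier results of these data known. The number of arrays limits the precision, and no signal levels or detection flags were used. Alternatives covered the arrays in the fit, scaling, array weights, priors, feature handling, the threshold and each array left out.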

Additional observations from a re-analysis of the deposited data

Results flagged for a closer look

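Of 200 group values tested (4 arrays each), 11 had 1 array apart from the other 3 by more than Dixon's 95% limit, and chance gives about 1 in 20. iFGFR2 replicate 1 was the array apart in 5 of them. It stood at 0.83 for Id4 (the others at 2.79 to 2.99), at 0.24 for Mgp (2.04 to 2.34), at -5.82 for S100a8 (-5.10 to -5.04), at 0.21 for the mean of the hormone-sensing list (0.66 to 0.75) and at -0.30 for the mean of the ATF4 list (-0.13 to -0.10). iFGFR2 replicate 2 stood apart for S100a9 at -6.81 (-6.32 to -6.25), and iFGFR2 replicate 4 for the mean of the Notch list at -0.19 (0.10 to 0.12). In iFGFR1, replicate 2 was apart for Cldn1 at 0.69 (1.86 to 2.07), for Gtf2f2 at -0.03 (0.78 to 0.89) and for the mean of the translation factors at 0.10 (0.31 to 0.35). Replicate 4 was apart for the mean of the macrophage list at 0.30 (-0.08 to -0.02).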

How the results depend on the processing

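The 360 calls became 71 with only the 8 compared arrays (47 higher and 24 lower in iFGFR2, 67 of them shared with the 360), 178 with arrays scaled to 1 median absolute deviation (108 higher, 70 lower), 202 with array weights (123 higher, 79 lower), 226 without variance shrinkage (125 higher, 101 lower) and 112 at an adjusted p under 0.01. The other alternatives gave 266 to 391, and leaving out 1 array gave 183 to 530. None of the 360 changed direction in any alternative that kept the gene. The fit of 8 arrays has fewer samples behind its spread and takes no spread from the Wnt1 and iR2 groups. The cause was not tested for any of these changes. Of the 64 named called genes, 26 kept their calls in every alternative. The fit of the 8 compared arrays ended 33 of the 64 calls. It called 0 members of the collagen, basal and myoepithelial, interferon and Notch lists. Without 1 array, the uncalled differences ranged over -0.11 to 0.29 for Fgfr2 (below 0 without iFGFR2 replicate 2), -0.18 to 0.35 for Wnt1 (below 0 without iFGFR2 replicate 1) and -0.25 to 0.13 for Fkbp1a (0.13 and 0.09 without iFGFR1 replicates 1 and 3, 0.05 without iFGFR2 replicate 2). Wnt1 was -0.14 with array weights, and Fkbp1a was 0.00 after scaling. Of 961 recomputed list medians, 28 moved by more than the SD between replicates. A filter on dim features was not run, since no detection flags were used, so genes far below the pool may have ratios set by background. No paired analysis was possible because the replicate numbers are in accession order and pair nothing.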
